A study of Mus musculus with 12 samples.

Results

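Mitochondrial ribosomal proteins are the proteins of the ribosome that works inside mitochondria, and their genes were taken from the count table by name, as every row whose gene symbol started with Mrpl or Mrps and a number, without pseudogenes. The rule gave 78 of the 34245 genes in the table. RNAseq libraries had been prepared from small-intestinal epithelial cells of male C57BL/6 mice carrying the Lgr5-EGFP-IRES-CreERT2 knock-in, in which GFP is driven from the *Lgr5* locus, and the cells had been sorted as intestinal stem cells (ISC, GFP-high and DAPI-negative crypt cells) or adult enterocytes (AE, Epcam-high, CD31-negative, CD45-negative and DAPI-negative villus cells). The mice were about 8 months (young) or about 27 months (aged) old, no treatment is named for any group, and each of the 4 groups (young ISC, aged ISC, young AE, aged AE) had 3 libraries. The libraries were named by the columns of the count table, because in 8 of the 12 sample titles the short sample code and the remainder of the title gave different groups.

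The mitochondrial ribosome makes the hydrophobic core subunits of the respiratory chain and of ATP synthase that the mitochondrial genome encodes. Its ribosomal RNAs come from mitochondrial DNA, but every one of its proteins is encoded in the nucleus, made on cytosolic ribosomes and imported. Some of these proteins have counterparts in bacterial ribosomes and others occur only in mitochondria. In the intestine, stem cells at the crypt base divide continuously, while enterocytes on the villus no longer divide and absorb nutrients.

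Of the 78 genes, 51 encode large subunit proteins, among them *Mrps30* and *Mrps18a*, which carry small subunit names. Another 26 encode small subunit proteins. The last, *Mrps36*, was named as a small subunit protein but is now known as a component of the 2-oxoglutarate dehydrogenase complex, and it was counted with neither subunit. It stayed among the 78, which are called the members or the mitoribosomal genes below. By origin, 48 of the genes belong to families shared with bacteria and 29 are specific to mitochondria. All 78 had at least 25 counts in every library and passed the filter on low counts in every comparison.

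Library totals ranged from 11893817 to 110794420 counts, the highest being young AE replicate 3. The sorted cells carried the markers of their labels: 12 stem cell genes summed to between 5970 and 8597 CPM, counts scaled to a common library size, in ISC libraries and between 149 and 703 CPM in AE libraries, and 16 enterocyte genes summed to between 1999 and 10330 CPM in ISC and between 73998 and 118139 CPM in AE. Young AE replicate 2 had the highest stem cell sum of the AE libraries, and its 16 proliferation genes summed to 563 CPM against 114 to 193 CPM in the other AE libraries. The 7 goblet cell genes listed also differed between the sorts, at 1390 to 2235 CPM in ISC and 28119 to 57009 CPM in AE, none of the 7 being at 0, and the part of goblet cells in any difference between AE and ISC was not tested. Paneth cell genes summed to 545 to 1610 CPM in ISC and 52 to 227 CPM in AE, enteroendocrine genes to 223 to 675 CPM and 2550 to 6492 CPM, tuft cell genes to 110 to 314 CPM and 240 to 764 CPM, leukocyte genes to 10.4 to 25.3 CPM and 32 to 61.4 CPM, and stroma and endothelium genes to at most 19.7 CPM. In bulk samples such as these, fewer cells of one type and less RNA per cell cannot be told apart. Young ISC replicate 1 and aged ISC replicate 3 were low in short transcripts, with medians of -0.38 and -0.43 (log2 deviation from the mean of the ISC libraries) over 194 genes of up to 1 kb, and the mitoribosomal genes lay at medians of -0.23 and -0.37 there. The 9 members of up to 1 kb lay at -0.40 and -0.54. The 12 members over 6 kb were low there too, at -0.16 and -0.34, while all 3109 genes over 6 kb lay at 0.09 and 0.17.

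Mitoribosomal transcripts made up more of the ISC libraries than of the AE libraries. Scaled by edgeR's TMM factors, the 78 genes summed to 3578, 4745 and 4568 CPM in young ISC and to 4529, 4830 and 3277 CPM in aged ISC. In AE they summed to 2505, 2774 and 2426 CPM at the young age and to 2470, 2085 and 2016 CPM at the aged. Every ISC library lay above every AE library, while within each cell type the libraries of both ages overlapped. The group means were 4297 ± 629 CPM (SD, n = 3) in young ISC, 4212 ± 824 CPM in aged ISC, 2568 ± 182 CPM in young AE and, in aged AE, 2190 ± 244 CPM. The lowest sum among the ISC libraries, 3277 CPM, belonged to aged ISC replicate 3, one of the libraries low in short transcripts.

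*Mrpl12*, which encodes the L7/L12 stalk protein of the large subunit, was the most abundant member over the 12 libraries. It measured 133, 211 and 214 CPM in young ISC, 192, 230 and 112 CPM in aged ISC, 120, 132 and 109 CPM in young AE and, in aged AE, 112, 95.9 and 93.6 CPM. The lowest young ISC value lay just above the highest young AE value, and the aged ISC value of 112 CPM just above that of aged AE. Next in order were *Mrpl24* and *Mrpl15*, both large subunit proteins of bacterial families, and the AE libraries of *Mrpl24*, at 94.0 to 123 CPM, overlapped those of *Mrpl12*. Per kilobase of exon, *Mrpl12* was the highest in ISC, at 122 ± 30.0 CPM per kb in young and 116 ± 39.2 CPM per kb in aged mice (SD, n = 3). In AE the highest was *Mrpl34*, a small protein of the large subunit, at 94.0 ± 6.14 and 77 ± 3.53 CPM per kb, against 78.6 ± 7.43 and 65.5 ± 6.41 CPM per kb for *Mrpl12*. The least abundant members by CPM were *Mrpl23*, a tunnel exit protein, *Mrps36* and *Mrps33*, the last a mitochondria-specific small subunit protein with group means between 4.59 and 6.05 CPM.

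Expression in AE was then compared with that in ISC at each age, by edgeR's quasi-likelihood test over all genes with Benjamini-Hochberg adjustment (FDR under 0.05). In young mice, 56 of the 78 mitoribosomal genes were lower in AE, 1 was higher and 21 did not pass. Of all 16681 genes tested, 25.4% were lower in AE and 27.7% were higher, so that 71.8% of the mitoribosomal genes stood against 25.4% of all genes. Their median log2 fold change was -0.87, against 0.15 over all genes. In aged mice, 61 of the 78 were lower in AE and none was higher, with a median of -1.12 against -0.13 over all genes. There 34.1% of 15855 genes were lower and 30.0% higher, and 78.2% of the mitoribosomal genes were lower. All 56 genes that fell in young mice also fell in aged mice, 5 more (*Mrpl51*, *Mrpl48*, *Mrpl17*, *Mrps24* and *Mrps23*) passed only in the aged. Over all 15581 genes tested at both ages, 4108 were lower at both. The more negative value was the aged one for 69 of the 78 (88.5%) and for 65.9% of all genes, and the aged value minus the young one had a median of -0.30 over the members and -0.14 over all genes; for each gene that change with age was tested as an interaction, given last. Marker medians also widened from young to aged mice, from -2.99 to -4.35 for proliferation, -3.93 to -4.76 for stem cell and 3.74 to 4.87 for enterocyte genes. Those of enteroendocrine (4.04 to 2.85) and tuft cell genes (0.85 to 0.40) narrowed. The part of the sorted cells' purity in the wider falls was not tested.

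These folds are relative to the rest of each library. TMM factors ran from 1.26 to 1.36 in ISC and from 0.72 to 0.82 in AE. On library totals without such factors, a choice added after the data were seen, the median of all genes moved to -0.55 in young and -0.91 in aged mice, 75 mitoribosomal genes were lower at each age and none was higher, and the split of all calls moved from 4241 lower and 4623 higher to 7137 lower and 2568 higher in the young, and from 5407 and 4754 to 8470 and 2711 in the aged.

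**Figure D1:**
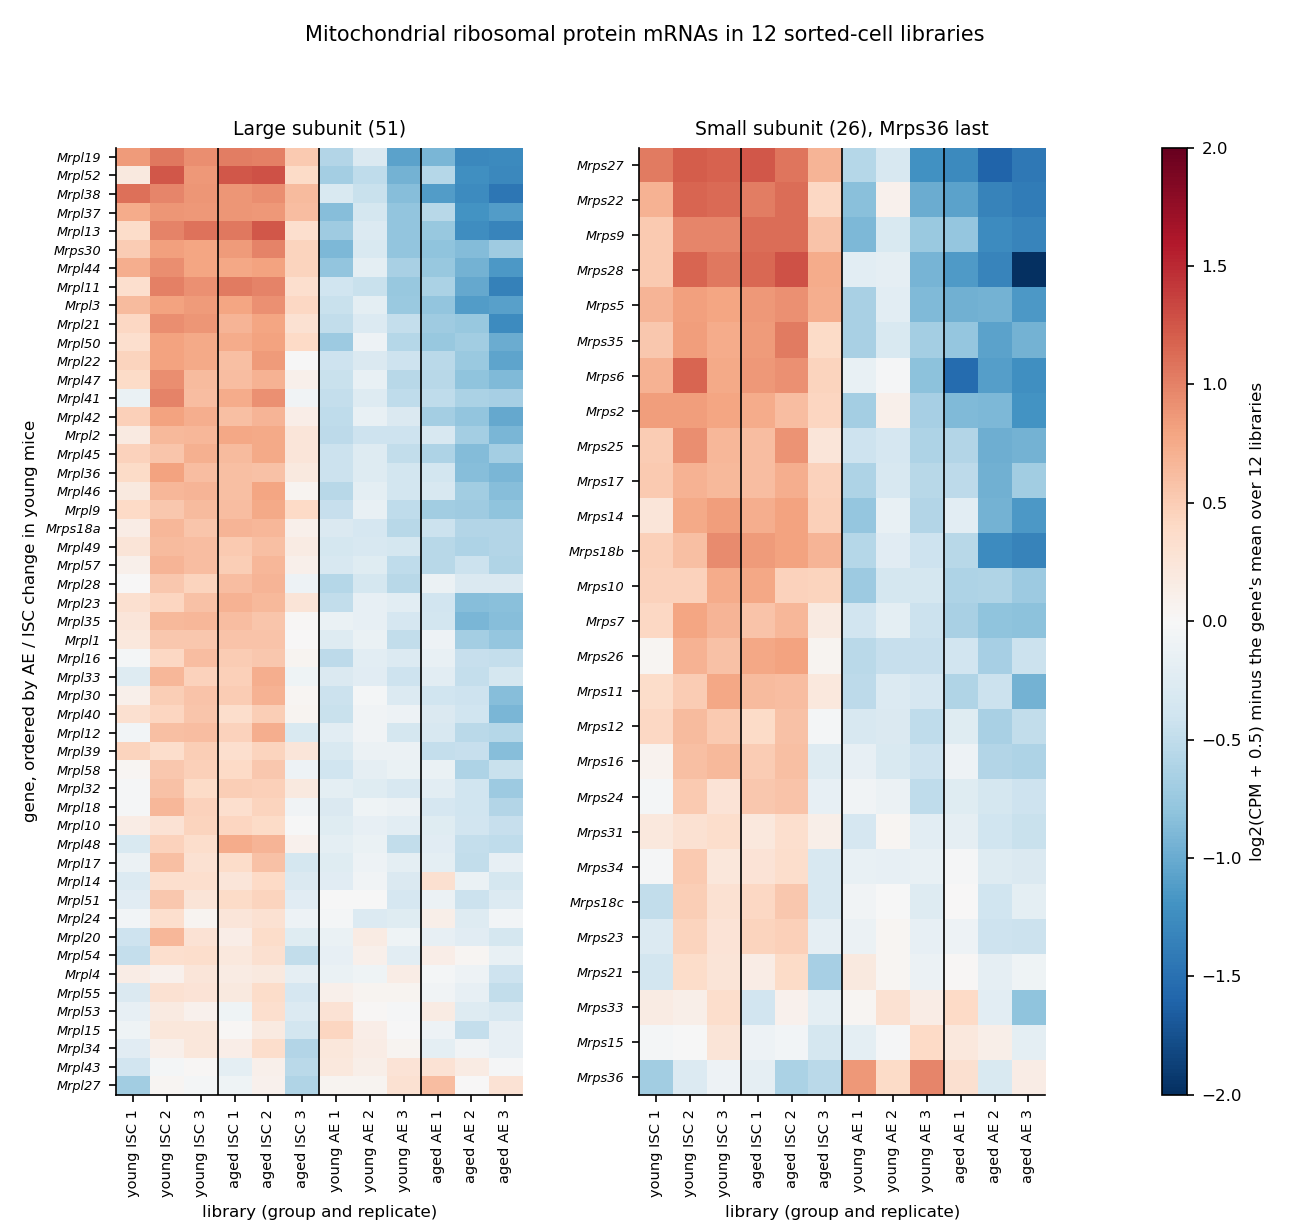
Heat map of the 78 members in the 12 libraries. Each row is a gene and each column a library, grouped as young ISC, aged ISC, young AE and aged AE; colour gives log2(CPM + 0.5) minus the mean of the gene over the libraries, with colours held at -2 and 2, and rows run from the largest fall in AE of young mice to the largest rise within each subunit. The upper rows are red in the 6 ISC and blue in the 6 AE libraries, the lowest rows are not, and aged ISC 3 is paler than the other ISC libraries.

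In the small subunit, 19 of 26 genes fell in young mice (median log2 fold change -1.02) and 21 of 26 in aged mice (median -1.32), none rising. The largest fall in young mice was that of *Mrps27*, a mitochondria-specific pentatricopeptide repeat protein. It measured 60.5, 68.6 and 67.1 CPM in young ISC, against 19.5, 23.4 and 12.3 CPM in young AE. In aged mice it measured 69.7, 62.1 and 47.0 CPM in ISC and 11.8, 9.32 and 10.6 CPM in AE. Each AE library lay below each ISC library by a wide margin, the difference being -1.84 ± 0.25 (log2 fold change ± SE) in young and -2.57 ± 0.19 in aged mice, with adjusted p of 0.000621 and 2.86e-06 by edgeR.

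*Mrps22* is a mitochondria-specific protein whose gene is mutated in an infantile mitochondrial disease. Its levels were 39.6, 55.1 and 54.1 CPM in young ISC, against 13.3, 25.9 and 12 CPM in young AE. In aged mice they were 49.6, 53.1 and 32.4 CPM in ISC and 11.3, 9.32 and 8.94 CPM in AE. The AE library at 25.9 CPM was young AE replicate 2, the one richest in stem cell and proliferation genes. The change was -1.55 ± 0.31 in young (adjusted p = 0.00386, edgeR) and -2.26 ± 0.22 in aged mice (adjusted p = 1.45e-05).

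*Mrps28*, the bS1m protein of the small subunit, had the largest fall in aged mice. It measured 36.0, 39.4 and 27.2 CPM in aged ISC and 7.04, 6.09 and 3.27 CPM in aged AE, so that every AE library was far below every ISC library. In young mice it measured 23.2, 36.6 and 33.6 CPM in ISC and 13.8, 14.1 and 8.19 CPM in AE. The fall was -2.71 ± 0.28 in aged (adjusted p = 2.04e-05, edgeR) and -1.39 ± 0.28 in young mice (adjusted p = 0.00369). *Mrps6*, the counterpart of bacterial S6, went from 28.5, 29.6 and 21.1 CPM in aged ISC to 4.95, 6.90 and 6.32 CPM in aged AE. Its change was -2.19 ± 0.22 there and -1.23 ± 0.26 in young mice. *Mrps9*, of the S9 family, fell by 1.48 on the log2 scale in young and by 2.16 in aged mice.

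In the large subunit, 37 of 51 genes fell in young mice (median -0.76) and 40 of 51 in aged mice (median -1.05). Among them *Mrpl38*, a mitochondria-specific protein of the central protuberance, measured 98.8, 90.1 and 84.6 CPM in young ISC, 84.5, 86.8 and 70.6 CPM in aged ISC, 36.7, 33.3 and 25.1 CPM in young AE and, in aged AE, 20.7, 18.8 and 16.5 CPM. The AE libraries were all below the ISC libraries at both ages, by -1.53 ± 0.18 in young (adjusted p = 0.000421, edgeR) and -2.18 ± 0.17 in aged mice (adjusted p = 3e-06). *Mrpl37*, a mitochondria-specific protein related to *Mrps30*, measured 105, 115 and 113 CPM in young ISC, against 34.3, 48.6 and 35.8 CPM in young AE, a change of -1.49 ± 0.18. *Mrps30* itself changed by -1.37 ± 0.20 in young and -1.68 ± 0.18 in aged mice, and it was named here beside its relative after its values were seen.

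*Mrpl19* and *Mrpl13*, large subunit proteins of bacterial families, changed by -1.59 and -1.45 in young mice and by -2.13 and -2.12 in aged mice. *Mrpl52*, specific to mitochondria, went from 46.9, 97.4 and 74.9 CPM in young ISC to 25.4, 28.4 and 20.9 CPM in young AE, and its lowest ISC value was that of the replicate low in short transcripts. Its change was -1.56 ± 0.27 in young and -2.11 ± 0.28 in aged mice. *Mrpl12*, the most abundant gene, fell by 0.63 on the log2 scale in young (SE 0.21, adjusted p = 0.037, edgeR) and by 0.90 in aged mice (SE 0.25, adjusted p = 0.00988). Its call in young mice was lost without young ISC replicate 2 (adjusted p = 0.123), young ISC replicate 3 (0.107), young AE replicate 1 (0.0807) or young AE replicate 3 (0.0754), and the change was between -0.66 and -0.52 in those fits.

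By origin, 35 of 48 genes of bacterial families and 21 of 29 mitochondria-specific genes fell in young mice, with medians of -0.81 and -0.91. In aged mice 37 of 48 and 24 of 29 fell, with medians of -1.10 and -1.15.

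The paralogs of bacterial S18 give a comparison within one protein family, since mammals carry *Mrps18a* in the large subunit and *Mrps18b* and *Mrps18c* at different places in the small subunit. *Mrps18a* measured 32.8, 46.7 and 43.6 CPM in young ISC, against 24.0, 23.3 and 19.8 CPM in young AE, and changed by -0.88 ± 0.19 in young and -1.13 ± 0.19 in aged mice. *Mrps18b* changed by -1.12 ± 0.20 and -1.92 ± 0.23, all 4 of these adjusted p-values (edgeR) being below the threshold and the highest 0.0053. *Mrps18c* measured 21.4, 42.8 and 37.2 CPM in young ISC, against 28.6, 29.9 and 25.1 CPM in young AE, and its groups overlapped. Its changes of -0.28 ± 0.26 and -0.52 ± 0.23 did not pass (adjusted p = 0.383 and 0.0745, edgeR). Without young ISC replicate 1, which is low in short transcripts and gave the value of 21.4 CPM, the young change was -0.53 and passed (adjusted p = 0.0474); without aged ISC replicate 3, the aged change was -0.75 (adjusted p = 0.00325). With the column code as a replicate block the aged change was -0.48 and passed (adjusted p = 0.0488, edgeR).

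**Figure D2:**
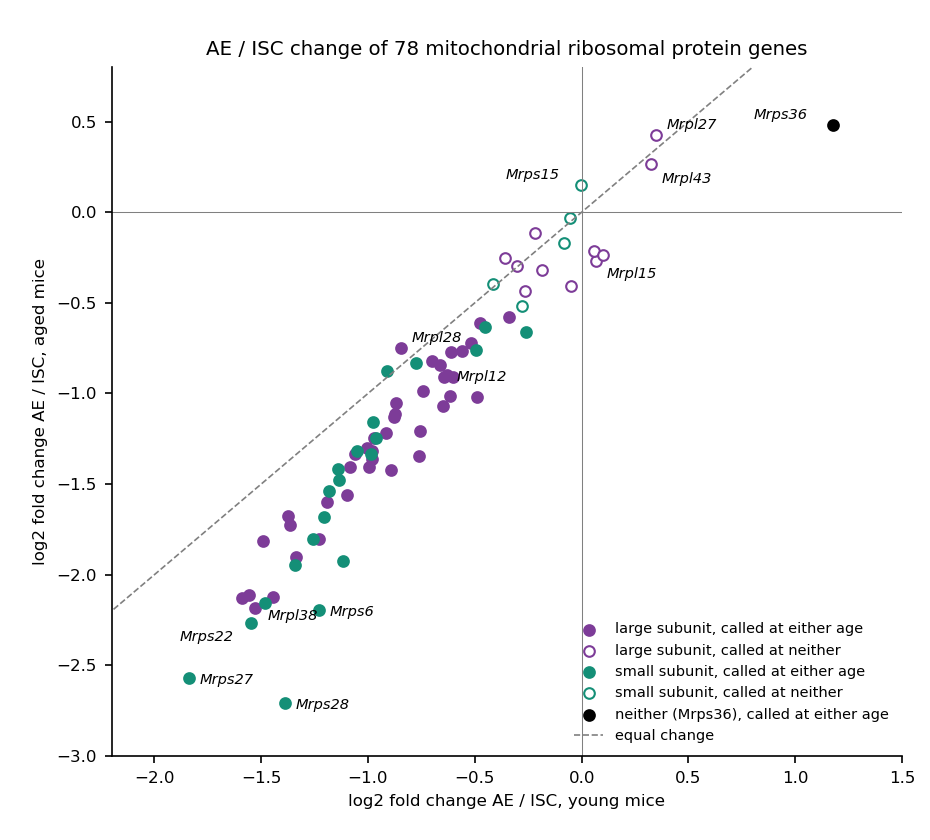
Log2 fold change of AE over ISC for each of the 78 members, in young mice (x axis) and in aged mice (y axis), coloured by subunit; filled points passed the test at either age, open points at neither, and the dashed line marks equal change. Of the points, 69 (88.5%, against 65.9% of all genes) lie below the line, *Mrps27* and *Mrps28* lie lowest, and *Mrps36* stands alone at the right (1.18 in young, 0.48 in aged mice; 0.47 and -0.30 on library totals).

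*Mrps36*, the member that is not a ribosomal protein, was the 1 gene of the set called higher in AE. It measured 3.89, 5.39 and 6.12 CPM in young ISC, against 12.5, 8.76 and 13.5 CPM in young AE, every AE library being above every ISC library. The change was 1.18 ± 0.28 in young mice (adjusted p = 0.00816, edgeR). In aged mice it measured 5.78, 4.10 and 4.40 CPM in ISC and 8.37, 5.28 and 7.41 CPM in AE, the groups overlapped, and the change of 0.48 ± 0.27 did not pass (adjusted p = 0.145). On library totals its change was 0.47 in young mice, no longer called (adjusted p = 0.165), and -0.30 in aged mice.

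A further 16 members passed at neither age: *Mrpl4*, *Mrpl14*, *Mrpl15*, *Mrpl20*, *Mrpl24*, *Mrpl27*, *Mrpl34*, *Mrpl43*, *Mrpl53*, *Mrpl54*, *Mrpl55*, *Mrps15*, *Mrps18c*, *Mrps21*, *Mrps33* and *Mrps34*. Both *Mrpl43* and *Mrpl27*, together with *Mrps36*, had the profiles over the 12 libraries least like the mean of the members (Pearson r of log2 CPM -0.55 for *Mrps36*, -0.39 for *Mrpl43* and -0.39 for *Mrpl27*, given as a description). *Mrpl43*, a mitochondria-specific large subunit protein, measured 50.01, 63.9 and 66.3 CPM in young ISC, and 75.8, 71.3 and 78.8 CPM in the AE of the same age. *Mrpl27*, which lies near the peptidyl transferase centre, measured 17.9, 30.2 and 28.7 CPM in young ISC, against 30.5, 30.8 and 36.6 CPM in young AE. In both genes the young AE libraries were all above the young ISC libraries while the aged groups overlapped, and the changes of 0.32 ± 0.16 and 0.35 ± 0.23 did not pass (adjusted p = 0.12 and 0.223, edgeR). On library totals they were -0.38 and -0.36, and *Mrpl43* in aged mice was -0.51 and passed (adjusted p = 0.0307, edgeR). *Mrps15*, the counterpart of bacterial S15, measured 48.3, 49.7 and 59.8 CPM in young ISC, against 43.2, 48.9 and 65.4 CPM in young AE, and its groups overlapped. *Mrpl15* changed by 0.07 ± 0.18 in young mice and by -0.27 ± 0.18 in aged mice. On library totals its young value turned negative and passed (-0.63, adjusted p = 0.0176, edgeR). Without aged ISC replicate 3, *Mrpl24* and *Mrpl15* passed in aged mice (both -0.42, adjusted p = 0.0464 and 0.0491, edgeR).

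**Figure D3:**
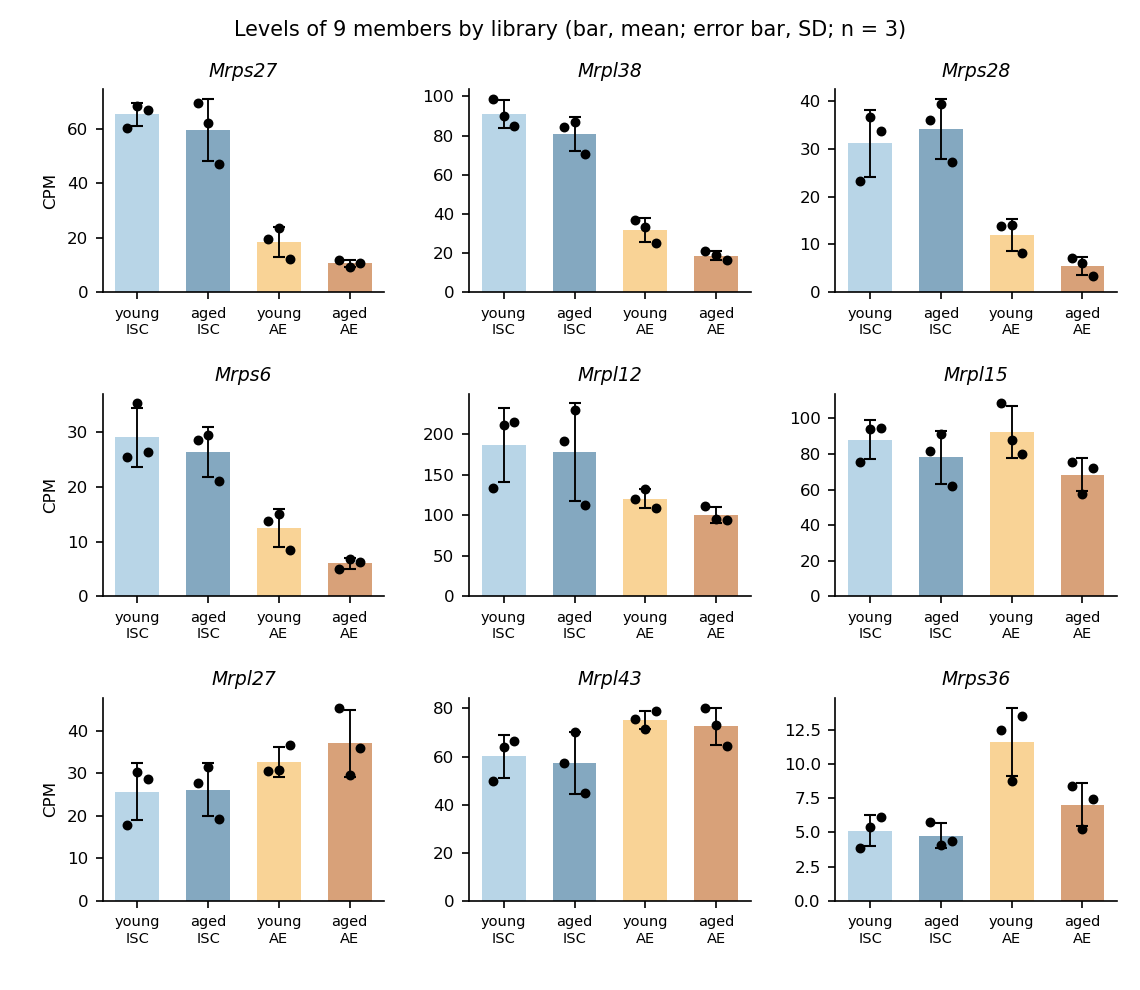
CPM (TMM-scaled) of 9 members in the 4 groups; bars are means, error bars SD and points the 3 libraries of each group. *Mrps27*, *Mrpl38*, *Mrps28* and *Mrps6* are lower in all AE than in all ISC libraries, *Mrpl15* overlaps, and *Mrps36* is highest in young AE (8.76 to 13.5 CPM), a rise that was not called on library totals.

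The size of the fall varied with the exon length of the genes. That length is the union of all annotated exons of a gene and can exceed the length of any single transcript. The 9 members of up to 1 kb of exon had a median of -0.22 (log2 fold change, young mice) with 3 of 9 called lower, the 22 members of 1 to 2 kb -0.60 with 13 called, the 25 of 2 to 4 kb -0.96 with 22 called, and the 22 longer than 4 kb -1.06 with 18 called. All genes of those lengths had medians of 0.33, 0.21, 0.18 and 0.09, and the share of them called lower also went up with length, from 16.8% through 21.4% and 25.9% to 27.9%. The share of them called higher went up as well, from 17.2% through 23.7% and 28.5% to 30.3%. In aged mice the members' medians were -0.24, -0.76, -1.33 and -1.34 with 3, 15, 22 and 21 called lower. The medians of all genes ran the other way there, at -0.41, -0.17, -0.17 and -0.09, with 28.1%, 30.5%, 34.5% and 36.0% called lower. Across the 78 members the Spearman correlation of fold change with exon length was -0.35 in young and -0.37 in aged mice, and over 9292 expressed genes it was -0.02 and -0.01; genes within a library are not independent replicates, and no test was made. *Mrps28*, at 783 bases of exon, was an exception with its change of -2.71 in aged mice.

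A further limit of single values is overlap: the spans of 36 members, introns included, overlap another annotated gene, 31 of them one on the other strand. Whether their exons overlap was not examined. Although the library kit was a directional one, which keeps the strand of the RNA, whether the counting used it is not given in the sources used here. *Mrpl46* and *Mrps11* overlap head to head on chromosome 7 and changed by -0.91 ± 0.19 and -0.96 ± 0.19 in young mice, and reads of their overlap could be assigned to one of the genes only if strand was used in counting. *Mrpl48* overlaps *Rab6a*, which had 41305 counts in all against 7250 for *Mrpl48*.

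The other genes of mitochondrial translation, taken from lists chosen by function, were compared in the same way, and genes named from them that did not pass were picked after their values were seen. Of 5 mitoribosomal proteins with other names, 4 fell at both ages, with medians of -1.19 in young and -1.30 in aged mice. They were *Ptcd3*, a pentatricopeptide repeat protein of the small subunit (24.3 ± 6.16 CPM in young AE against 68.7 ± 7.23 CPM in young ISC, SD, n = 3), *Gadd45gip1*, *Chchd1* and *Dap3*, while *Aurkaip1* changed by -0.17 ± 0.16 and did not pass. Of 25 factors for assembly and rRNA modification, 18 fell and 1 rose in young mice and 20 fell and 1 rose in aged mice. *Mrm3*, an rRNA methyltransferase, and *Noa1* and *Rcc1l*, which act in ribosome assembly, had among the largest falls in young mice (-2.74 ± 0.52, -2.15 ± 0.37 and -2.17 ± 0.22). *Trub2*, a pseudouridine synthase, was the one called higher, by 0.95 ± 0.33 (adjusted p = 0.0387, edgeR), and no gene of the list was called higher with upper-quartile factors in young mice or on library totals at either age.

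Of 15 translation factors, 11 fell in young and 12 in aged mice and none rose, with medians of -0.82 and -1.03. *Tsfm*, the exchange factor for elongation factor Tu, changed by -1.90 ± 0.28 in young mice, and *Lrpprc*, which stabilises mitochondrial mRNAs, by -1.34 ± 0.20. *Mtif3*, an initiation factor, changed by 0.22 ± 0.17 and did not pass. Of 17 mitochondrial aminoacyl-tRNA synthetases, 14 fell in young and 16 in aged mice (medians -1.34 and -1.64), led by *Yars2* (-2.18 ± 0.24) in the young and *Ears2* (-3.02 ± 0.22) in the aged. *Lars2* did not pass and varied widely within AE, at 345 ± 468 CPM in young AE against 91.4 ± 9.34 CPM in young ISC (SD, n = 3).

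Of 11 genes of mitochondrial DNA transcription and copying, 8 fell and 2 rose in young mice and 7 fell and 1 rose in aged mice. *Mgme1*, a nuclease of mitochondrial DNA, *Twnk*, the replicative helicase, and *Tfam*, which packages the mitochondrial genome, fell by 2.60, 2.35 and 1.69 on the log2 scale in young mice, and *Mterf2* rose by 1.33 ± 0.28. On library totals none of the 11 was called higher in young mice.

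The mitochondrially encoded mRNAs, which the mitoribosome translates, differed in the other direction. Of 13 tested, 10 rose in young mice (median 2.04), and of 12 tested 11 rose in aged mice (median 2.14). *mt-Co1*, cytochrome c oxidase subunit I, measured 19358 ± 8816 CPM in young AE, against 4465 ± 2706 CPM in young ISC (SD, n = 3), a change of 2.12 ± 0.56 (adjusted p = 0.0135, edgeR). The genes were unevenly counted, *mt-Co2*, *mt-Co3* and *mt-Atp6* having under 6 CPM in every group mean beside far higher levels of *mt-Nd1* or *mt-Cytb*, and only uniquely mapped reads had been kept. On library totals the medians were 1.34 and 1.36, with 2 genes called higher in young and 10 in aged mice and none lower. The mitochondrial ribosomal RNAs *mt-Rnr1* and *mt-Rnr2* were not analysed here.

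Nuclear subunits of oxidative phosphorylation, which join the products of the mitoribosome in the same complexes, had no common direction: of 79 genes, 3 were lower and 6 higher in AE of young mice (median 0.13), and 8 were lower and 8 higher in aged mice (median 0.01), although on library totals 34 and 55 of them were lower (medians -0.56 and -0.76). Of the cytosolic ribosomal proteins, 80 of 82 genes were lower in young mice and 81 of 82 in aged mice, with medians of -2.23 and -2.93. Their summed level went from 34064 ± 7448 CPM (SD, n = 3) in young ISC to 7452 ± 2832 CPM in young AE, and from 37652 ± 10913 CPM to 5456 ± 1112 CPM in the aged.

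Among 9 regulators of mitochondrial genes, 5 fell and 2 rose in young mice and 6 fell and 2 rose in aged mice. *Myc*, a growth regulator, measured 145 ± 33.1 CPM in young ISC, against 9.16 ± 10.4 CPM in young AE (SD, n = 3), a change of -4.04 ± 0.83, and the coactivator *Pprc1* changed by -2.73 ± 0.49. The coactivator *Ppargc1a* rose by 2.85 ± 0.21 and the nuclear receptor *Esrra* by 1.24 ± 0.18. *Nrf1*, *Gabpb1* and *Yy1*, which encode factors known to bind promoters of mitochondrial genes, fell by 0.68, 0.55 and 0.42 on the log2 scale in young mice, and *Gabpa*, the ETS partner of *Gabpb1*, changed by 0.05 ± 0.16 and did not pass.

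**Figure D4:**
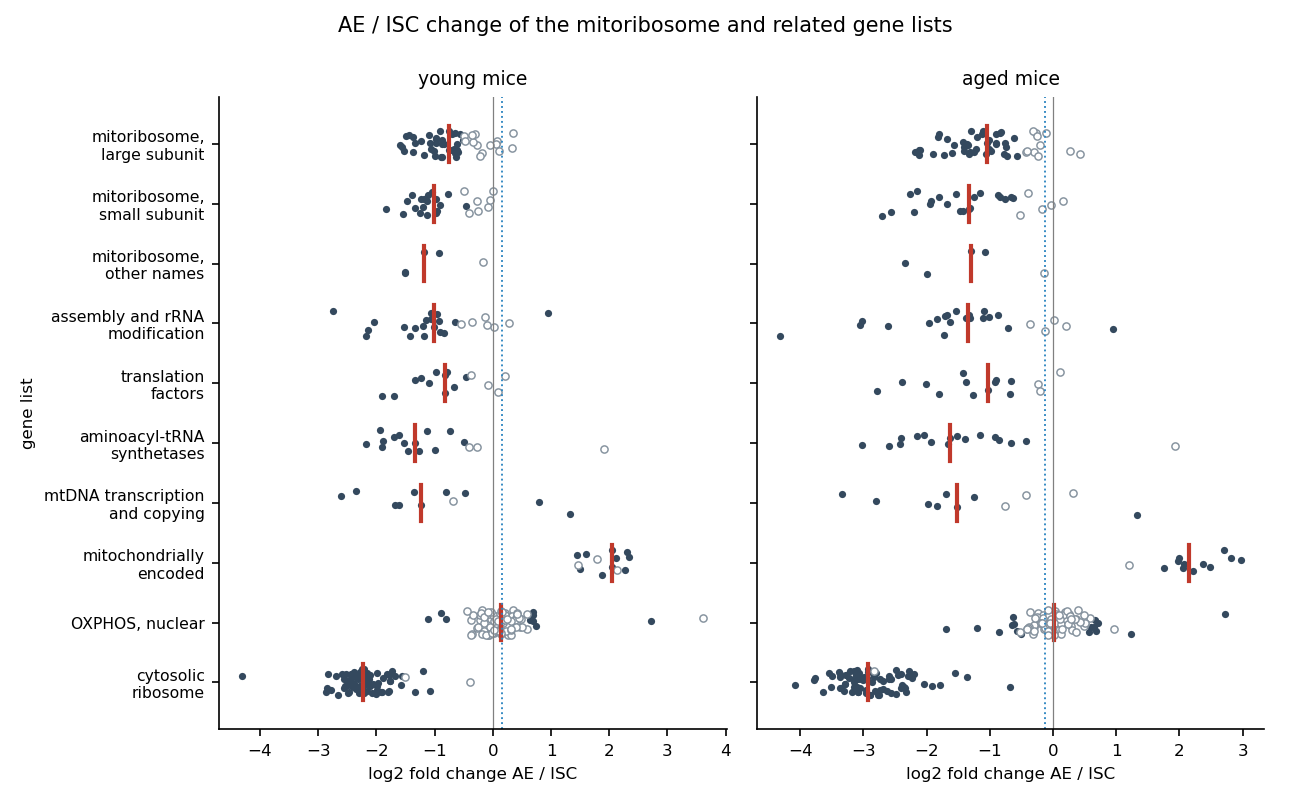
Log2 fold change of AE over ISC for the genes of 10 lists in young (left) and aged mice (right); each point is a gene, filled where it passed the test, red bars are list medians and the blue dotted line is the median of all genes. The lists of mitochondrial translation lie left of 0 (from -0.76 for the large subunit in young mice to -1.64 for the aminoacyl-tRNA synthetases in aged mice), the mitochondrially encoded genes right of it (2.04 and 2.14), nuclear OXPHOS genes around it (below it on library totals, -0.56 and -0.76) and the cytosolic ribosome farthest left (-2.23 and -2.93).

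Promoters of the members were searched for 4 motifs because the genes moved together. RefSeq start sites (build GRCm38.p6) gave windows from 250 bases before to 50 bases after the start for 69 of the 78 members. The motifs were CCGGAAG, bound by ETS factors such as GABP, AAGATGGC (YY1), GCGCATGC (the core of the NRF1 site) and CACGTG (the E box), each on both strands; the ETS and YY1 motifs can share the bases AAG, and the NRF1 core can overlap its own reverse complement. CCGGAAG was found for 26 of 69 members (37.7%) and for 9.93% of all 27025 genes with a window. AAGATGGC was found for 12 members (17.4%, against 3.19% of all genes), GCGCATGC for 8 (11.6%, against 3.05%) and CACGTG for 5 (7.25%, against 8.09%). The 27025 genes were taken whether expressed here or not, while all members had counts in every library, so these shares compare unlike sets of genes. Of the members that fell at both ages, 15 of 51 with a window held CCGGAAG (29.4%), and of those called at neither age, 7 of 12 did (58.3%). AAGATGGC was found for 11 of the 51 and for none of the 12, and GCGCATGC for 7 of the 51 and none of the 12. A match is a description of the sequence and does not show that a factor binds there.

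The 250 bases before the start are shown for both of the small subunit genes with the largest falls in young mice, *Mrps27* (plus strand, chr13:99344536-99344785) and *Mrps22* (minus strand, chr9:98601680-98601929), and for both of the mitoribosomal genes with the highest fold changes, *Mrpl27* (plus strand, chr11:94653541-94653790) and *Mrpl43* (minus strand, chr19:45006443-45006692). Capitals mark CCGGAAG or its reverse complement CTTCCGG, and each sequence ends with the base before the start.
Mrps27: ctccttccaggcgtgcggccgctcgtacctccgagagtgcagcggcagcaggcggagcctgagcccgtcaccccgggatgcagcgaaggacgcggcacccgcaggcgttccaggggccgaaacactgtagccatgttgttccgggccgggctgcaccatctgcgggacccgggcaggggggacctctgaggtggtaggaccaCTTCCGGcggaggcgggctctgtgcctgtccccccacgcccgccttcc
Mrps22: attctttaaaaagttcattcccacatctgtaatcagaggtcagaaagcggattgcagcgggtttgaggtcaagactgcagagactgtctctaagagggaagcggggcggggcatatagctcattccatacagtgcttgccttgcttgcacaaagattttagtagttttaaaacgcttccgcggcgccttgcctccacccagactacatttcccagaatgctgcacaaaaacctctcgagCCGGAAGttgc
Mrpl27: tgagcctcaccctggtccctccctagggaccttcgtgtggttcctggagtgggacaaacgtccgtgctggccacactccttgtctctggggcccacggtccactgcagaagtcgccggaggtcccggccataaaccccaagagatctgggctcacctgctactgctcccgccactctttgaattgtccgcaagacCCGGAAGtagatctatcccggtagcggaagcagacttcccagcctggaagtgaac
Mrpl43: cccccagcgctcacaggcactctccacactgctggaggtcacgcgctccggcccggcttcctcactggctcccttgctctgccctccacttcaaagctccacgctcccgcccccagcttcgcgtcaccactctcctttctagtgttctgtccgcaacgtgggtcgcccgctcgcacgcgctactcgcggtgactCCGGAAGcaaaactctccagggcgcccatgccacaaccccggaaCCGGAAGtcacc
All 4 held the motif within 60 bases of the start, once each in *Mrps27* (48 bases before the start), *Mrps22* (11) and *Mrpl27* (55) and in 2 copies in *Mrpl43* (56 and 12 bases before), so that genes with large falls and genes that were not called shared it.

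The effect of age was then examined in each cell type. In ISC, no mitoribosomal gene and no gene at all (0% of 15552) passed the threshold in edgeR, and DESeq2 called 58 genes, none of them mitoribosomal. The members' median log2 fold change of aged over young was -0.03, against 0.01 over all genes. At an unadjusted P under 0.05, edgeR had no mitoribosomal gene in either direction, while 2.43% of all genes were lower and 2.04% higher. In 3 members, *Mrps33*, *Mrps2* and *Mrps15*, every aged ISC library lay below every young one, which is 3.85% of the members against 4.41% of all genes, and no member lay wholly above, against 4.43% of all genes. *Mrps2*, of the S2 family, measured 63.0, 63.0 and 61.0 CPM in young and 58.9, 53.9 and 47.4 CPM in aged ISC, a difference of -0.22 ± 0.13. *Mrps33* and *Mrps15* changed by -0.40 ± 0.24 and -0.24 ± 0.15, and the lowest unadjusted P among the higher values belonged to *Mrpl48* (0.33 ± 0.25), *Mrps5* (0.08 ± 0.13) and *Mrps28* (0.14 ± 0.21), all adjusted p being 1 by edgeR. The members' median depended on single libraries, running from -0.15 without aged ISC replicate 2 to 0.12 without aged ISC replicate 3, one of the libraries low in short transcripts, and it was -0.15 without young ISC replicate 1, the other. Without both of them, a choice added after the data were seen, it was 0.00207. No member was called in any of these fits. Of the enterocyte genes, 15 of 16 were lower in aged ISC (median -0.99), 8 of them at an unadjusted P under 0.05 by edgeR. Leukocyte genes, which were scarce, had 7 of 8 negative (median -2.68), and tuft cell genes 6 of 6 (median -0.22). Stem cell genes had 4 of 12 negative (median 0.06), proliferation genes 8 of 16 (median 0.02) and enteroendocrine genes 1 of 7 (median 0.33). Their part in the members' values was not tested.

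In AE, edgeR likewise called no gene of 16265 (0%) and so no mitoribosomal gene, and DESeq2 called 18 genes, none of them mitoribosomal. The mitoribosomal values were shifted toward lower levels, with 72 of 78 below 0 and a median of -0.25, against -0.04 over all genes. At an unadjusted P under 0.05, edgeR had 14 of the 78 members (17.9%) lower and none higher, where 3.35% of all genes were lower and 1.62% higher. They were 7 genes of the large subunit, 6 of the small subunit and *Mrps36*. The 14 were *Mrpl38*, *Mrps6*, *Mrps28*, *Mrps27*, *Mrpl42*, *Mrpl3*, *Mrps7*, *Mrps36*, *Mrps2*, *Mrps22*, *Mrpl15*, *Mrpl35*, *Mrpl21* and *Mrpl9*, and their lowest adjusted p (edgeR) was 0.833. In 26 members (33.3%) every aged AE library lay below every young one, against 6.98% of all genes, and in 1 (1.28%), *Mrpl28*, every aged library lay above, against 3.95% of all genes. The 14 became 5 without young AE replicate 2, and 4 without aged AE replicate 2 or without aged AE replicate 3. They became 19 without aged AE replicate 1 or in a fit on all 4 groups, and 28 on library totals, where the medians were -0.38 over the members and -0.17 over all genes. All genes at that level in either direction numbered 809 in the main fit. Without young AE replicate 2, aged AE replicate 2 or aged AE replicate 3 they numbered 632, 428 and 418. Without aged AE replicate 1, in the fit on all 4 groups and on library totals they numbered 736, 1267 and 1112. Without young AE replicate 3, the library of 110794420 counts, they numbered 2071 of 14848 tested, and members lower at that level 16. Without young AE replicate 1 these counts were 623 and 13. No member passed adjustment in any of these fits. Summed proliferation genes were 193, 563 and 114 CPM in young AE, against 144, 143 and 139 CPM in aged AE, none of the 16 at 0, and summed stem cell genes 269, 703 and 149 CPM and 169, 263 and 228 CPM. Summed enterocyte genes did not overlap between the ages, at 73998, 88039 and 95429 CPM in young and 98049, 118139 and 110598 CPM in aged AE, and all 16 had positive values (median log2 fold change 0.33). All 16 proliferation genes (median -1.33), all 6 Paneth cell genes (median -1.23), all 6 tuft cell genes (median -0.57) and 10 of 12 stem cell genes (median -0.71) had negative values, as had 5 of 7 enteroendocrine (median -0.54), 4 of 7 goblet cell (median -0.04) and 6 of 12 leukocyte genes (median 0.06). No gene of these lists passed adjustment, and their part in the shift was not tested.

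The lowest unadjusted P in AE was that of *Mrpl38*, with 36.7, 33.3 and 25.1 CPM in young and 20.7, 18.8 and 16.5 CPM in aged AE. The aged libraries were all below the young ones, and the difference of -0.74 ± 0.19 did not pass adjustment (unadjusted P = 0.00417, adjusted p = 0.833, edgeR). *Mrps6* measured 13.8, 15.1 and 8.55 CPM in young and 4.95, 6.90 and 6.32 CPM in aged AE, a difference of -1.02 ± 0.29. *Mrps28* measured 13.8, 14.1 and 8.19 CPM in young and 7.04, 6.09 and 3.27 CPM in aged AE, a difference of -1.10 ± 0.35. *Mrpl28*, a large subunit protein of a bacterial family, measured 43.0, 50.4 and 43.9 CPM in young and 59.1, 52.4 and 52.7 CPM in aged AE, a difference of 0.28 ± 0.15 (adjusted p = 0.833, edgeR), and *Mrpl27* and *Mrpl24* followed with 0.20 ± 0.19 and 0.14 ± 0.15. *Mrps36* differed by -0.71 ± 0.27. Among the other lists, genes lower in aged AE at an unadjusted P under 0.05 numbered 2 of 5 mitoribosomal proteins with other names, 2 of 25 assembly factors, 5 of 15 translation factors, 3 of 17 aminoacyl-tRNA synthetases, 0 of 11 genes of mitochondrial DNA transcription and copying, 0 of 13 mitochondrially encoded genes, 0 of 79 oxidative phosphorylation genes, 2 of 9 regulators and 3 of 81 cytosolic ribosomal proteins, against the 3.35% of all genes. None of these lists had a gene higher at that level or past adjustment. By sign, 80 of 81 cytosolic ribosomal proteins had negative values (median -0.46). So had 14 of 15 translation factors (-0.32), 15 of 17 aminoacyl-tRNA synthetases (-0.22) and 19 of 25 assembly factors (-0.24). Negative too were 4 of 5 proteins with other names (-0.09) and 47 of 79 oxidative phosphorylation genes (-0.03). For mitochondrial DNA transcription and copying it was 6 of 11 (-0.16). Among regulators it was 4 of 9 (0.03) and among mitochondrially encoded genes 2 of 13 (0.36).

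**Figure D5:**
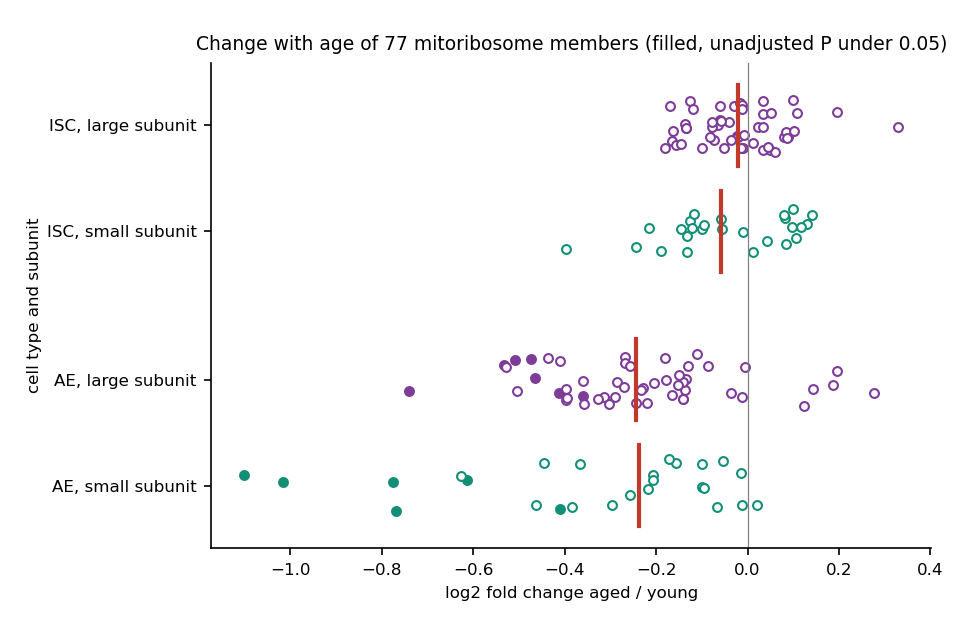
Log2 fold change of aged over young for large and small subunit members in ISC and AE; each point is a gene, filled where its unadjusted P was under 0.05, and red bars are medians. The ISC points spread around 0 with no filled point, and the AE points lie mostly left of 0 (medians -0.24 for both subunits); no point passed adjustment.

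Whether age acted differently in AE and ISC was tested as an interaction over all 12 libraries. Of 17377 genes edgeR called 1 (0.00575%), DESeq2 called 43, and none of them was mitoribosomal. At an unadjusted P under 0.05, edgeR had 6 members (7.69%) with the more negative age effect in AE and none with the more positive, against 2.51% and 1.85% of all genes, and the members' median was -0.23 against -0.09. The 6 were *Mrps28* (-1.25 ± 0.42), *Mrps6* (-0.89 ± 0.34), *Mrpl38* (-0.58 ± 0.23), *Mrps18b* (-0.73 ± 0.32), *Mrps5* (-0.53 ± 0.24) and *Mrpl9* (-0.46 ± 0.21), each on the log2 scale with its SE and each with an adjusted p of 1. Leaving out single libraries gave between 1 (without aged ISC replicate 2) and 15 (without aged ISC replicate 3) such members. All genes at that level in either direction numbered 737 and 864 in those fits, against 757 in the main fit. Without young AE replicate 3, all genes at that level numbered 1642 and such members 10. The most positive by unadjusted P were *Mrps15* (0.22 ± 0.25), *Mrpl28* (0.17 ± 0.29) and *Mrpl14* (0.18 ± 0.33). Of the cytosolic ribosomal proteins, 81 of 82 had negative values (median -0.61). All 16 enterocyte genes were positive (median 1.21), 8 of them at an unadjusted P under 0.05 by edgeR. All 16 proliferation genes (median -1.20) and 11 of 12 stem cell genes (median -0.77) were negative. The part of these lists in the members' values was not tested. With 3 libraries a group, the exact permutation test of a single gene could not go below p = 0.1.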

How the data were processed

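RNAseq libraries of sorted cells were used as raw counts per gene, which the authors deposited as a single table of 12 columns. Reads had been trimmed with Trim Galore 0.4.4 and aligned to GRCm38 with HISAT2 2.1.0, and the authors used SeqMonk to count uniquely mapped reads in exons, transcripts of a gene being merged. Libraries had been made with a directional kit. The annotation release and the use of strand in counting are not given in the sources used here. Groups were taken from the column names. All 34245 gene names were kept in the library totals.

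Within each comparison, genes reaching 10 counts in all were tested with edgeR 4.0.16 in R 4.3.3 (TMM factors, quasi-likelihood test, two-sided, Benjamini-Hochberg adjustment over all genes tested, FDR 0.05). The SE given with a fold change was derived as the absolute log2 fold change divided by the square root of the test's F statistic. DESeq2 1.42.0 was an alternative. The comparisons were AE against ISC at each age, aged against young in each cell type, and the difference of the age effects, 5 in all. CPM used TMM factors over the 12 libraries. Levels per kilobase used union exon lengths of GENCODE annotation, in which all 78 members matched by symbol. The scripts were tested on simulated data. No libraries were identical. The study's methods name 3 animals for each age, and the labels do not tie libraries to them, so p-values measure the spread between these samples. The depth of 11893817 to 110794420 counts limits the precision of low genes by counting error, and member counts ran from 25 to 9118 per library. Because the filter used total counts, the deepest library, young AE replicate 3, also affected which genes were tested. Without it, genes tested in AE against ISC of young mice went from 16681 to 15372. The median over all genes then went from 0.15 to -0.06, while that of the members was -0.87 in both fits.

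ISC and AE columns share a code at each age. The correlation of deviations from group means was between 0.12 and 0.29 for the 6 same-code pairs and between -0.21 and 0.06 for 12 other pairs, so the codes were taken to pair the libraries, and a fit with the code as a block was made. The main fits treated the paired libraries as independent, and the fit with the block was an alternative.

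The members, gene lists and motifs were chosen with earlier results of these data known. Members named with values were the 8 largest falls and rises among those called in AE against ISC at each age, the S18 paralogs, the 3 lowest unadjusted P in each direction by age, the 3 most and least abundant and the 3 least like the mean profile. Alternatives were other scalings, filters, fits and leaving out each library. Library totals, the newer quasi-likelihood fit and leaving out both ISC libraries low in short transcripts were added after the data were seen. mt-Rnr1 and mt-Rnr2 were not used here.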

Additional observations from a re-analysis of the deposited data

How the results depend on the processing

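The fall of mitoribosomal genes in AE held under every setting tried, with 43 of the 56 genes called in young mice and 57 of the 61 in aged mice called lower in each setting, and 67 and 71 of 78 negative in each. Leaving out single libraries gave 44 to 61 genes lower in young mice (median -1.01 to -0.76) and 57 to 70 in aged mice (median -1.28 to -1.02). In the same fits all genes lower numbered 3475 to 4337 in young and 4817 to 5342 in aged mice, against 4241 and 5407 in the main fits. On library totals the medians were -1.57 and -1.90, 0 members were higher in young mice, and the summed level in ISC was 5551 CPM (young) and 5575 CPM (aged) and that in AE 2042 CPM and 1612 CPM; the cause was not tested.

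With the column code as a replicate block, 56 members were lower and 1 higher in young mice, 66 against 61 were lower in aged mice, and *Mrps18c* passed in aged mice (-0.48, adjusted p = 0.0488, edgeR). All genes lower numbered 4324 with the block against 4241 without it in young mice, and 5526 against 5407 in aged mice. The block gave 21 genes against 1 for the difference of age effects, DESeq2 43, and none was a member. DESeq2 called 58 genes by age in ISC and 18 in AE, where edgeR called 0.

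Some values changed sign between settings, and the cause was not tested. *Mrpl15* in young mice was -0.051 with upper-quartile factors, -0.63 on library totals, and -0.035, -0.097 and -0.00345 without young ISC replicate 1, young AE replicate 1 or young AE replicate 2. On library totals *Mrpl43* was -0.38 and -0.51, *Mrpl27* -0.36 and -0.34 (young and aged) and *Mrps36* -0.30 (aged). There *Mrpl15* in young mice (adjusted p = 0.0176, edgeR) and *Mrpl43* in aged mice (adjusted p = 0.0307) were called lower. *Mrps33* ranged from -0.22 to 0.025 in young mice on leaving out single libraries, positive without young ISC replicate 3, and in aged mice was 0.050 with DESeq2, 0.051 with RLE factors, 0.0035 with edgeR's own filter and 0.049 in a fit on all groups. Leaving out single libraries gave it -0.41 to 0.24 in aged mice, positive without aged ISC replicate 2 (0.12), aged AE replicate 2 (0.0017) or aged AE replicate 3. By age, *Mrps28* in ISC ranged from -0.035 (without young ISC replicate 1) to 0.29, and the difference of age effects from -0.043 (without aged ISC replicate 3) to 0.31 for *Mrpl28* and from -0.080 (without aged AE replicate 1) to 0.36 for *Mrpl14*. *Mrpl23* lost its call in young mice without young ISC replicate 3 (adjusted p = 0.057, edgeR). Among single genes, 831 values kept direction and side of the threshold and 21 changed direction. Of those that kept direction, a further 12 gained and 6 lost the call. Member counts of 25 to 9118 a library leave the least abundant members with the largest relative counting error.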
